A study of Mus musculus with 14 samples.

Results

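The 10 genes described here encode the desaturases and elongases that make or extend C18:1 and polyunsaturated fatty acids in mouse liver: Scd1, Scd2, Fads1, Fads2, Fads3, Elovl1, Elovl2, Elovl3, Elovl5 and Elovl6. They were chosen by name, as the rows of the raw count table that carry these symbols. Each symbol matched 1 of the 45706 rows, and all 10 were among the 15674 genes that passed the filter on low counts.

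Stearoyl-CoA desaturases insert a double bond into saturated fatty acyl-CoA and so make oleate, the main C18:1 fatty acid, from stearate. Fads2 and Fads1 act in turn on the essential fatty acids of the diet, and the Elovl proteins catalyse the condensation step that lengthens an acyl chain. In liver, transcription of several of these genes is known to respond to SREBF1, to the liver X receptors and to carbohydrate and fat in the diet.

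Livers came from male C57BL6/J mice that were 8 weeks old at the start; the labels name no allele or other genetic change in any group. Mice of the chow group (4 libraries, titled CD) ate LabDiet chow, and the other mice ate a Research Diets MASH diet, named for metabolic dysfunction-associated steatohepatitis, for 16 weeks. Mice on the MASH diet then stayed on it for 6 more weeks and were treated with vehicle, C18:1 or C18:1-leucine; these are the MASH (3 libraries), C18:1 (4 libraries, titled OA) and C18:1-leucine (3 libraries, titled OAL) groups. By its name C18:1-leucine is the C18:1 acyl chain joined to leucine. For chow mice 16 weeks of diet are also given, but no 6 further weeks, so their age at collection may differ from that of the other groups. The labels used here give no dose, do not say that the MASH libraries are the vehicle mice, and do not say whether chow mice were dosed.

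Levels are given in CPM, counts scaled to a common library size with edgeR. Library totals ranged from 33821874 to 51107248 counts. The treatment tag disagrees with the title in 2 libraries: C18:1 replicate 1 is tagged as dietary only, and C18:1-leucine replicate 1 carries the C18:1 tag. The titles set the groups used here, and calls of the 10 genes that rest on these libraries are given with and without them. Genes of the wider lists are given with the titles alone. Transcripts of the exocrine pancreas were high in chow replicate 2 (8 markers summing to 186 CPM) and C18:1-leucine replicate 2 (889 CPM), against 3.73 to 7.66 CPM elsewhere. Bile duct transcripts were high in MASH replicate 4, C18:1 replicate 1 and C18:1 replicate 3 (8 markers summing to 35.3, 42.1 and 48.1 CPM), against 8.63 to 26.5 CPM elsewhere, the highest of these being C18:1-leucine replicate 4. The hepatocyte markers were abundant in every library, with 10 genes summing to 64245 CPM or more. No label says that replicates came from separate mice, so p-values measure the spread between these libraries.

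By position, 6 of the 10 genes lie on chromosome 19 of GRCm38. Fads3 (10041569 to 10060110, plus strand), Fads2 (10062765 to 10101746, minus strand) and Fads1 (10182888 to 10196877, plus strand) form a cluster in which Fads1 and Fads2 are transcribed away from each other. Further along the chromosome, Scd2 (44293674 to 44306864, plus strand) and Scd1 (44394455 to 44407879, minus strand) lie 87.6 kb apart, and Elovl3 (46131897 to 46135694, plus strand) follows. Genes lying between Scd2 and Scd1 were not looked for. The other 4 elongase genes are single: Elovl1 on chromosome 4 (118428093 to 118432953, plus), Elovl2 on chromosome 13 (41182381 to 41220405, minus), Elovl5 on chromosome 9 (77917364 to 77984519, plus) and Elovl6 on chromosome 3 (129532355 to 129638495, plus). Only Scd1 and Scd2 among the 10 had fractional counts, and they had them in all 14 libraries, so reads may have been shared among the Scd paralogs and the split between them is uncertain. Exons of Elovl1, Elovl3 and Elovl6 overlap those of an antisense gene (Cdc20, Pitx3 and Gm35986, at mean levels of 1.90, 0.0673 and 1.38 CPM), and no source used here says whether reads were counted by strand.

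By group mean, Scd1 was the most abundant of these transcripts per length of exon in every group. Its level on the scale of CPM per kilobase of exon was 375 ± 239 (SD, n = 4) in chow, 2994 ± 275 (n = 3) in MASH, 2491 ± 999 (n = 4) in C18:1 and 2315 ± 668 (n = 3) in C18:1-leucine liver. The next level was that of Elovl2 in chow and C18:1-leucine (118 ± 18.2 and 107 ± 6.92 CPM per kilobase) and that of Elovl5 in MASH and C18:1 (159 and 121 CPM per kilobase). In chow the ranges of Scd1 and Elovl2 overlapped over libraries. In chow replicate 1 Scd1 (89.4 CPM per kilobase) was below both Elovl3 (185) and Elovl2 (133). In the other 3 groups Scd1 stood above every other member in every library.

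Behind Scd1, the genes fell into steps. Elovl2, Elovl3, Elovl5, Fads1 and Fads2 had group means between 52.6 and 159 CPM per kilobase, and neighbours in that order overlapped in every group except Fads2 and Fads1 in C18:1 liver. Elovl1 and Elovl6 lay between 5.79 and 13.4 CPM per kilobase, Scd2 between 0.981 and 5.85, and Fads3 was the lowest in every group, at 0.667 ± 0.0719 in chow and 1.66 ± 0.681 in C18:1 liver. The step from Elovl6 or Elovl1 down to Scd2, and the step from Scd2 down to Fads3, did not overlap in any group.

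**Figure D1:**
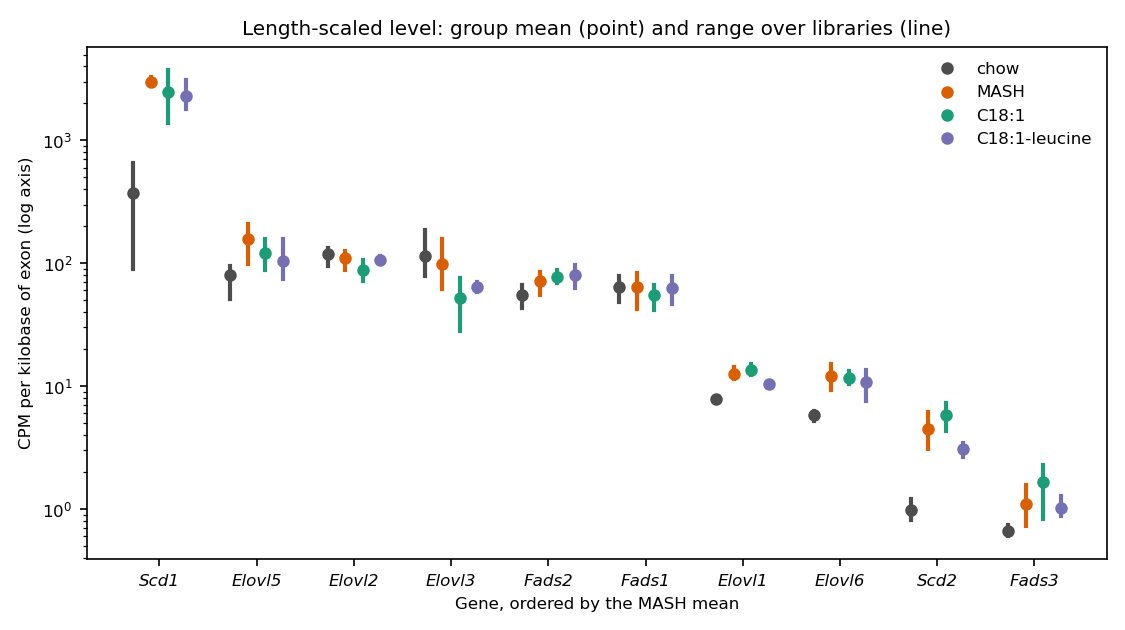
Group mean (point) and range over libraries (line) of each gene in CPM per kilobase of exon, on a log axis, with the genes ordered by their mean in MASH liver. Scd1 stands apart in the MASH-diet groups (means from 2315 to 2994), and Scd2 and Fads3 lie at the bottom.

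The share of Scd1 in the summed length-scaled level of the 10 genes ran from 14.7% to 59.4% in chow libraries and from 81.7% to 87.6% in MASH libraries. It was 78.5% to 88.8% in C18:1 and 82.7% to 85.1% in C18:1-leucine libraries, so the 3 groups on the MASH diet overlapped. The sum of the other 9 genes was 364 to 518 CPM per kilobase in chow and 388 to 658 in MASH, and these ranges also overlapped. In MASH libraries the CPM of Scd1 alone came to 1.35% to 1.61% of the scaled library size, and it ranked 3 among all genes in each. In chow it came to 0.0437% to 0.321% of that size and ranked between 53 and 332. The size is scaled, so these are not shares of the reads themselves.

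Against chow, MASH liver had higher transcript levels of both stearoyl-CoA desaturases and of 3 of the 5 elongases, and no member was lower. Scd1 was 7.99-fold and Scd2 4.57-fold higher, Elovl6 2.07-fold, Elovl5 1.98-fold and Elovl1 1.60-fold. Neither of the polyunsaturated fatty acid desaturases Fads1 and Fads2 passed the test, nor did Fads3, Elovl2 or Elovl3. The 5 called members, by edgeR's quasi-likelihood test at a Benjamini-Hochberg adjusted p under 0.05, are read against 35.5% of all tested genes called in either direction and 20.4% called higher (15.1% lower). The same 5 members had groups that did not overlap in CPM, as did 40.3% of all tested genes. The median log2 fold change of the 10 genes was 0.69 and that of all tested genes was 0.01.

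**Figure D2:**
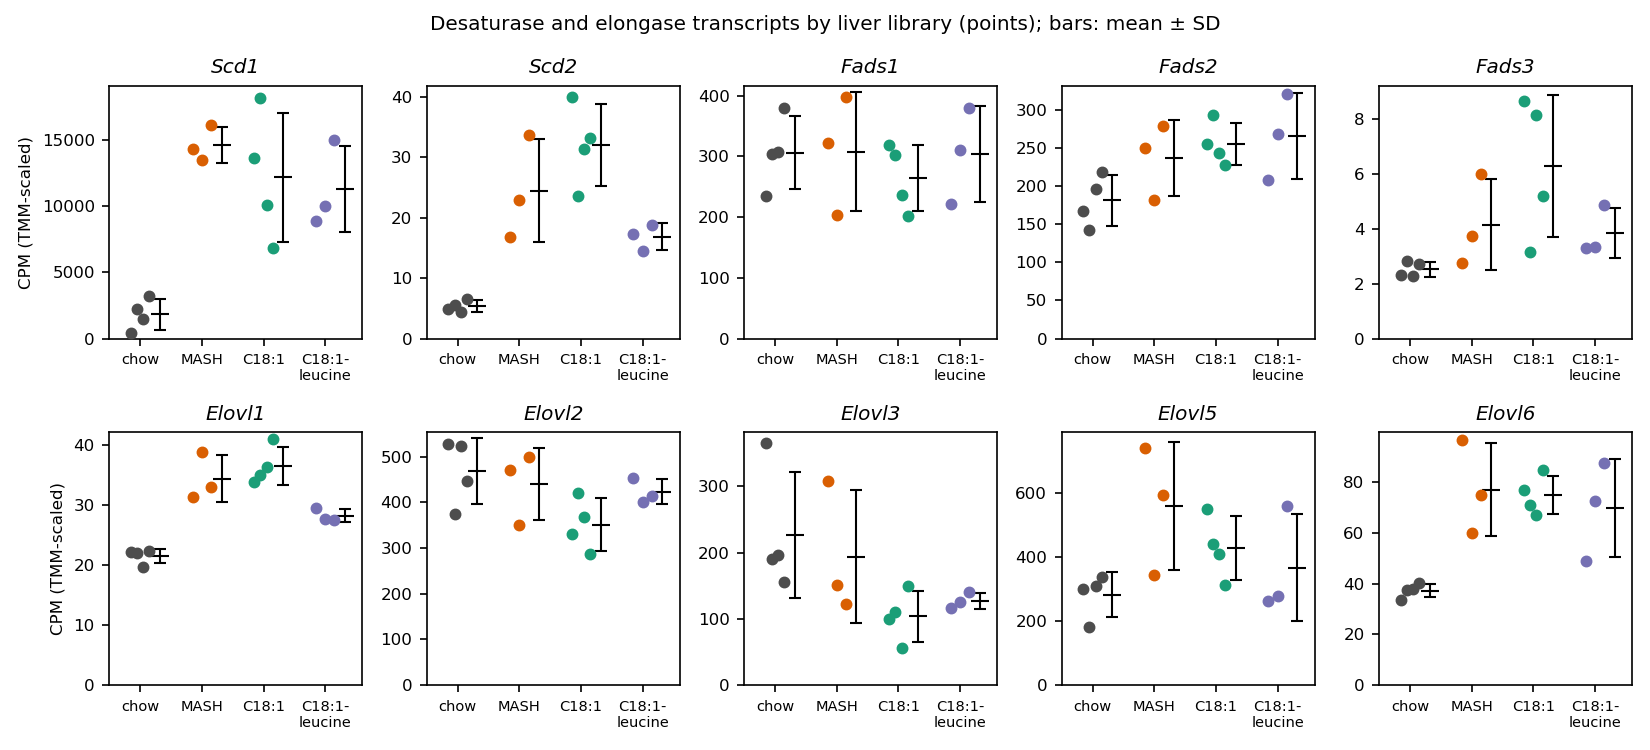
CPM of each gene in each liver library (points), with group mean ± SD (bars), for chow (4), MASH (3), C18:1 (4) and C18:1-leucine (3) libraries; each panel has its own axis. Scd1, Scd2, Elovl1 and Elovl6 lie higher in all MASH-diet libraries than in any chow library, while Fads1 overlaps in all groups.

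Scd1, the main stearoyl-CoA desaturase of liver, measured 437, 2203, 1491 and 3206 CPM in chow replicates 1 to 4 and 14355, 13475 and 16115 CPM in MASH replicates 2 to 4. Every MASH library was far above every chow library, and chow replicate 1 was well below the other chow libraries. The log2 difference was 3.00 ± 0.51 (SE; 95% interval 1.90 to 4.09; adjusted p = 0.000811). The chow libraries spread 7.33-fold from lowest to highest and the MASH libraries 1.20-fold.

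Scd2, a paralog best known from tissues outside adult liver, measured 4.86, 5.57, 4.41 and 6.59 CPM in chow and 16.8, 23.0 and 33.6 CPM in MASH. The groups did not overlap, and MASH replicate 4 was the highest. The log2 difference was 2.19 ± 0.23 (95% interval 1.70 to 2.69; adjusted p = 3.0e-05). Scd2 remained a minor form: its CPM was 0.206% to 1.11% of that of Scd1 in chow and 0.117% to 0.208% in MASH. Since Scd1 has 15199 counts or more in every library and Scd2 from 169 to 1993, a small share of Scd1 reads placed on Scd2 would matter for Scd2, and this was not tested.

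Fads2, which opens the synthesis of long polyunsaturated fatty acids from linoleate and alpha-linolenate, measured 167, 142, 196 and 219 CPM in chow and 250, 181 and 278 CPM in MASH. MASH replicate 3 lay within the chow range and the other MASH libraries above it, and the log2 difference of 0.38 ± 0.18 did not pass (95% interval -0.00 to 0.77; adjusted p = 0.111). Without MASH replicate 3 it passed (adjusted p = 0.0381). Fads1, which acts after Fads2 and an elongation step, measured 234, 304, 307 and 380 CPM in chow and 323, 203 and 397 CPM in MASH. The MASH libraries reached below and above all chow libraries, with a log2 difference of 0.01 ± 0.25 (95% interval -0.52 to 0.54; adjusted p = 0.987).

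Fads3, the remaining gene of the cluster, was counted at 2.30, 2.82, 2.29 and 2.71 CPM in chow and 2.73, 3.73 and 5.98 CPM in MASH. The lowest MASH library fell just inside the chow range. The fold change was 1.64 (95% interval 1.01 to 2.68; log2 difference 0.71 ± 0.33; adjusted p = 0.104) and did not pass. It passed without C18:1 replicate 2 in the fit (adjusted p = 0.0495) and with groups taken from the treatment tags (adjusted p = 0.0320), and without the 3 libraries high in bile duct transcripts the log2 difference was 0.34 (adjusted p = 0.341).

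Among the elongases, Elovl6, which extends palmitate to stearate and so supplies the substrate of Scd1, measured 33.7, 37.4, 38.0 and 40.0 CPM in chow and 96.4, 59.8 and 75.0 CPM in MASH. All 3 MASH libraries were above all chow libraries, with a log2 difference of 1.05 ± 0.18 (95% interval 0.66 to 1.43; adjusted p = 0.000794). Elovl1, an elongase of long saturated chains expressed in most tissues, measured 22.1, 21.9, 19.7 and 22.3 CPM in chow and 31.3, 38.8 and 33.0 CPM in MASH. Its groups were tight and apart, and the log2 difference of 0.67 ± 0.09 had an adjusted p of 0.000101.

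Elovl5, which lengthens polyunsaturated chains between the steps of Fads2 and Fads1, measured 301, 181, 311 and 337 CPM in chow and 741, 345 and 594 CPM in MASH. MASH replicate 3 was only just above the highest chow library, and MASH replicate 2 was more than double it. The log2 difference was 0.99 ± 0.32 (95% interval 0.30 to 1.67; adjusted p = 0.0282). Leaving out a library ended this call in 3 cases, with adjusted p of 0.0677 (chow replicate 2), 0.123 (MASH replicate 2) and 0.0816 (MASH replicate 4), and so did testing with no filter on low counts (0.0584). It was also lost without both libraries holding pancreatic transcripts (0.0707) and without the 3 libraries high in bile duct transcripts (0.114).

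Elovl2, which lengthens long polyunsaturated chains, and Elovl3, an elongase of saturated and monounsaturated chains, gave no call. Elovl2 measured 527, 375, 523 and 446 CPM in chow and 471, 351 and 500 CPM in MASH, and Elovl3 measured 366, 190, 196 and 155 CPM in chow and 309, 151 and 123 CPM in MASH. The groups overlapped for both genes. The log2 differences were -0.09 ± 0.16 for Elovl2 (95% interval -0.43 to 0.25) and -0.22 ± 0.38 for Elovl3 (95% interval -1.04 to 0.59).

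RefSeq windows of the GRCm38.p6 promoters, running from 250 bases before a start to 50 after it, were at hand for 6 of the 10 genes (8 windows: Elovl1, Elovl2, Elovl5, Elovl6, Fads2 and Fads3). The upstream stretches of the 3 elongases that rose in MASH liver are shown because they can be read side by side for regulatory letters; each is on the plus strand, 5′ to 3′, and capitals mark any match to a searched motif. They are chr4:118427843-118428092 for Elovl1, chr9:77917115-77917363 for Elovl5 and chr3:129532136-129532354 for Elovl6.
Elovl1: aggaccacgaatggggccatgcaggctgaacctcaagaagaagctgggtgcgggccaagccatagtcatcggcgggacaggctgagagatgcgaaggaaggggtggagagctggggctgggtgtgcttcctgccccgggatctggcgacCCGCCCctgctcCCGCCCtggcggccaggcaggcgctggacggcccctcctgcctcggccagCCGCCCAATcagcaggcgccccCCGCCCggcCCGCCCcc
Elovl5: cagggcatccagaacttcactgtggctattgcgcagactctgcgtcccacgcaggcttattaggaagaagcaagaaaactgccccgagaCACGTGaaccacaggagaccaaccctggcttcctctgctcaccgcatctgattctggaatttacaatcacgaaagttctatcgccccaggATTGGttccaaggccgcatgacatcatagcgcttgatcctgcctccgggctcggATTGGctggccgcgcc
Elovl6: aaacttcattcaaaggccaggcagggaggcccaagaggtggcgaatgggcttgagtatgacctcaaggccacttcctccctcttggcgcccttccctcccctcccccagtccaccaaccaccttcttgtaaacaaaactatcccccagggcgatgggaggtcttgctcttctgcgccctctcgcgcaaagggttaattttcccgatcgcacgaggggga
Both strands were searched for 7 motifs. The sterol regulatory element, bound by SREBP proteins, was spelled TCACNCCAC. The E-box of carbohydrate-responsive and clock activators was spelled CACGTG. The pentamer CCAAT, bound by nuclear factor Y, is named for its letters. The GC box, bound by SP-family proteins, was spelled GGGCGG. The core promoter motif of the TATA-binding protein was spelled TATAAA. Direct repeats 1 and 4 of the nuclear receptor site are given by name only. In the Elovl1 stretch 5 GC boxes were found on the minus strand, of which the one 39 to 34 bases before the start overlaps a CCAAT box. The Elovl5 stretch holds an E-box 161 to 156 bases before the start and 2 CCAAT boxes on the minus strand, and the Elovl6 stretch holds none of the letters searched. Over all windows of the 6 genes, a GC box was found in 4 genes, a CCAAT box in 3, an E-box in Elovl5 alone, and the sterol regulatory element, both direct repeats and the TATA box in none. Of 32851 promoter windows of the same length in the table, 35.7% hold a GC box, 37.4% a CCAAT box, 7.15% an E-box, 13.6% a TATA box, 1.24% the sterol regulatory element, 0.0396% direct repeat 1 and 0.0152% direct repeat 4. These shares are per window, whereas the counts above are per gene, and the 6 genes have 8 windows, so they are not like for like. The GC box of the Fads2 window lies inside the annotated gene. All of these are matches of letters in a window, and no binding was measured.

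Whether C18:1 or its leucine conjugate moved these genes within MASH-diet liver was asked by setting each treated group against MASH; both comparisons use the same 3 MASH libraries. Under C18:1 the values were 13645, 18212, 10067 and 6827 CPM for Scd1 and 40.0, 23.5, 31.3 and 33.1 CPM for Scd2. Under C18:1-leucine they were 8886, 10049 and 15039 CPM for Scd1 and 17.3, 14.4 and 18.8 CPM for Scd2. The Scd1 libraries of both treated groups reached well below the MASH libraries. At the top, C18:1 replicate 2 lay above all MASH libraries and C18:1-leucine replicate 4 within their range. The Scd2 libraries overlapped MASH in both treated groups.

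No member passed the test in C18:1 against MASH. edgeR called 0 of the 10 (1 at an unadjusted p under 0.05), as did DESeq2 and limma voom. Of all tested genes edgeR called 0% (968 had an unadjusted p under 0.05), DESeq2 3 genes and limma voom 0. The member under that level was Elovl3, at 99.7, 110, 55.7 and 150 CPM under C18:1 beside 309, 151 and 123 CPM in MASH. The log2 difference was -0.90 ± 0.37 (95% interval -1.71 to -0.09; adjusted p = 0.770). For Scd1 the log2 difference was -0.27 ± 0.49, with a 95% interval from -1.32 to 0.79 that leaves room for a change of either sign. Elovl1 had the narrowest interval (-0.10 to 0.27, around 0.09 ± 0.09). The log2 differences of the other members were 0.39 ± 0.22 for Scd2, -0.22 ± 0.24 for Fads1, 0.11 ± 0.18 for Fads2, 0.60 ± 0.32 for Fads3, -0.33 ± 0.16 for Elovl2, -0.39 ± 0.32 for Elovl5 and -0.04 ± 0.18 for Elovl6. The groups overlapped for all 10 genes, where 5.46% of all tested genes did not overlap. With groups from the treatment tags no member passed, and the log2 difference changed sign for Scd2 (-0.11) and Fads3 (-0.09). Without both libraries with disagreeing labels no member passed either.

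In C18:1-leucine against MASH no member passed either. edgeR called 0 of the 10 (2 at an unadjusted p under 0.05), and DESeq2 and limma voom called 0. The share of all tested genes called was 0.0702% by edgeR, 6.68% by DESeq2 (945 of 14139) and 3.94% by limma voom (617 of 15674). Elovl1 measured 29.6, 27.7 and 27.4 CPM under C18:1-leucine, below all 3 MASH libraries, and was the 1 member whose groups did not overlap (22.3% of all tested genes did not). Its log2 difference was -0.28 ± 0.09 (95% interval -0.48 to -0.08; adjusted p = 0.143). Scd2 differed by -0.54 ± 0.24 (95% interval -1.05 to -0.02; adjusted p = 0.254). For Scd1 the difference was -0.37 ± 0.53 (95% interval -1.51 to 0.76) and for Elovl5, at 264, 278 and 559 CPM, it was -0.61 ± 0.34 (95% interval -1.35 to 0.13). The remaining log2 differences were -0.02 ± 0.26 for Fads1, 0.17 ± 0.19 for Fads2, -0.11 ± 0.35 for Fads3, -0.06 ± 0.17 for Elovl2, -0.61 ± 0.40 for Elovl3 and -0.14 ± 0.19 for Elovl6. With groups from the treatment tags no member passed, and the log2 difference changed sign for Fads1 (0.15) and Elovl6 (0.06). Without both libraries with disagreeing labels no member passed, and the same genes changed sign (0.17 and 0.06).

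**Figure D3:**
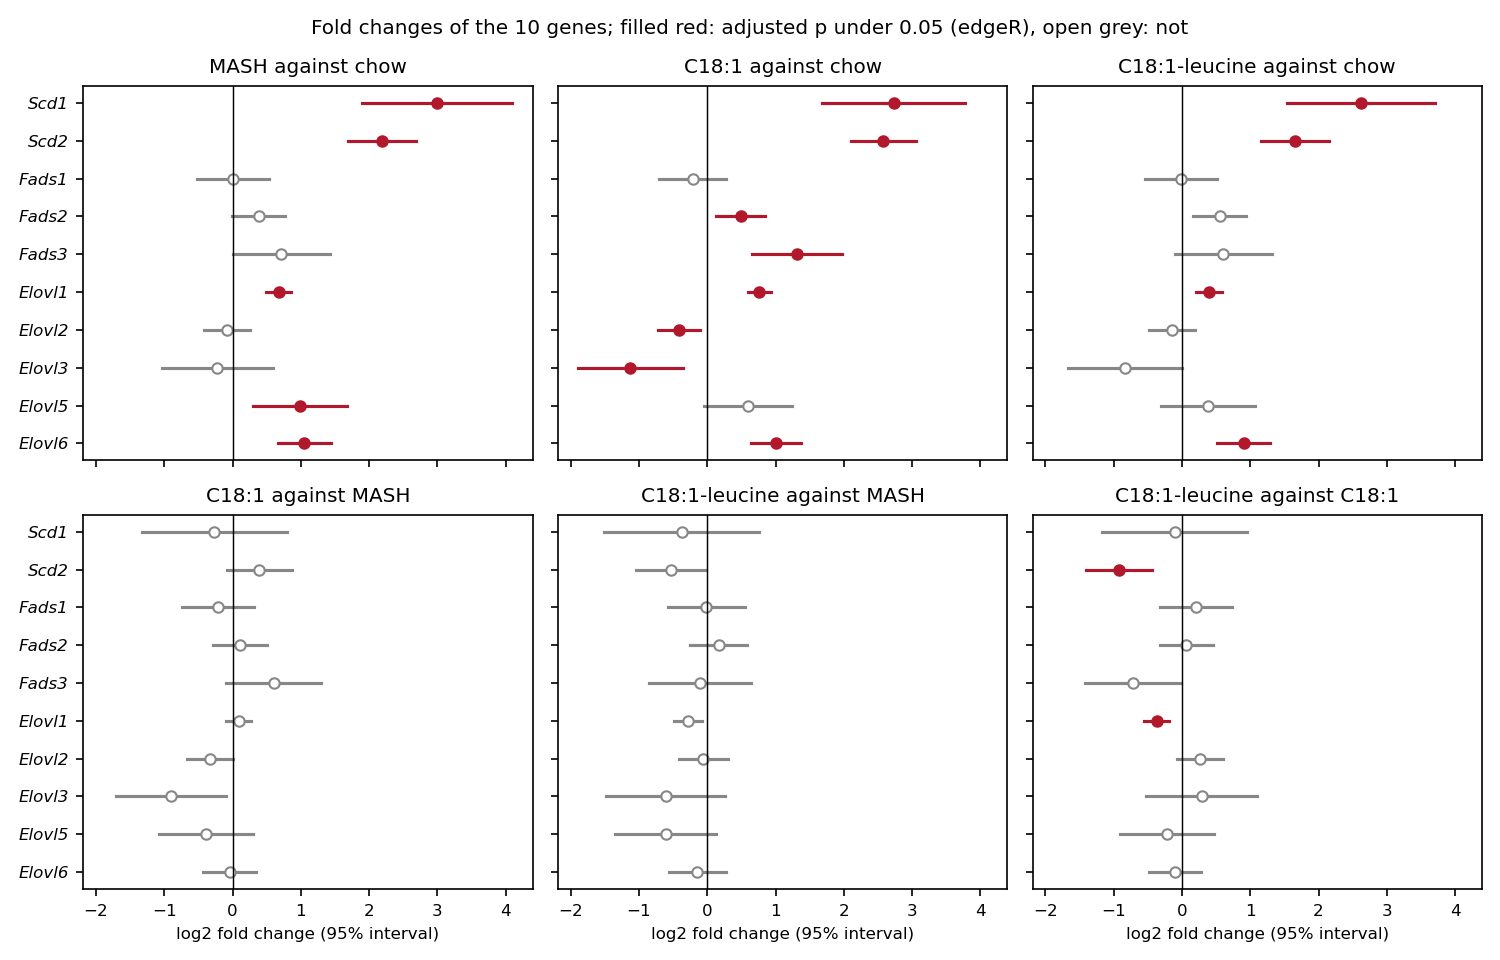
Log2 fold change (point) and 95% interval (line) of each gene in the 6 comparisons; filled red points passed edgeR's test at an adjusted p under 0.05 and open grey points did not. The upper row, against chow, holds 5, 8 and 4 called genes, and the lower row, within the MASH diet, holds 0, 0 and 2.

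Set directly against each other, the compounds differed in 2 of the 10 genes: Scd2 and Elovl1 were lower under C18:1-leucine than under C18:1. The comparison is 1 pair of compounds, and as no dose is given the doses may differ. Of all tested genes 16.2% were called in this comparison and 8.89% were called lower. Thus 2 of 10 is close to the share of all genes called in either direction. The groups did not overlap for the same 2 of the 10, where 27.7% of all tested genes did not overlap. Scd2 was lower in all 3 C18:1-leucine libraries (14.4 to 18.8 CPM) than in any C18:1 library (23.5 to 40.0 CPM), with a log2 difference of -0.92 ± 0.23 (95% interval -1.41 to -0.44; adjusted p = 0.0173). Elovl1 likewise did not overlap, at 27.4 to 29.6 CPM against 33.8, 35.0, 36.4 and 41.0 CPM, with a difference of -0.37 ± 0.09 (95% interval -0.56 to -0.18; adjusted p = 0.0142).

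Both calls changed with the libraries used. With groups taken from the treatment tags neither gene passed (Scd2 -0.66, adjusted p = 0.439; Elovl1 -0.36, adjusted p = 0.252), and without both libraries with disagreeing labels Elovl1 passed (-0.44, adjusted p = 0.0464) and Scd2 did not (-0.82, adjusted p = 0.116). Neither passed without both libraries holding pancreatic transcripts (adjusted p = 0.105 for Scd2 and 0.0818 for Elovl1) or without the 3 libraries high in bile duct transcripts (0.0644 and 0.0550). Scd2 was also lost without C18:1 replicate 1 (adjusted p = 0.0519), C18:1-leucine replicate 1 (0.0539) or C18:1-leucine replicate 2 (0.0840), and Elovl1 without C18:1-leucine replicate 2 (0.0640).

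The other 8 genes did not separate the compounds. For Scd1 the difference was -0.11 ± 0.49, and its 95% interval of -1.17 to 0.96 spans a change of about 2-fold in each direction. Fads3 measured 8.64, 3.15, 8.14 and 5.20 CPM under C18:1 and 3.31, 3.35 and 4.87 CPM under C18:1-leucine. C18:1 replicate 2 lay at the bottom of all 7 libraries, and the log2 difference of -0.71 ± 0.33 did not pass (95% interval as a ratio 0.375 to 0.991; adjusted p = 0.150). It passed without C18:1 replicate 2 (adjusted p = 0.0333) and with limma voom (0.0469). It was -0.27 with groups from the treatment tags (0.855) and -0.11 without the 3 libraries high in bile duct transcripts (0.850). Intervals were -0.33 to 0.73 for Fads1, -0.33 to 0.45 for Fads2, -0.07 to 0.60 for Elovl2, -0.52 to 1.10 for Elovl3, -0.91 to 0.47 for Elovl5 and -0.49 to 0.28 for Elovl6.

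Markers of macrophages, the resident and recruited phagocytes of liver, moved in the same comparisons. The summed level of 10 macrophage markers was 275 to 437 CPM in chow, 793 to 1107 CPM in MASH, 949 to 1320 CPM in C18:1 and 568 to 618 CPM in C18:1-leucine libraries, and none of the 10 was at 0 throughout a group. Of the 10 markers, 9 rose in MASH against chow, where 20.4% of all tested genes rose. In C18:1-leucine against C18:1, 7 were lower, where 8.89% of all tested genes were lower. Within groups the order of Scd2 matched that of this sum in the C18:1 and the C18:1-leucine libraries but not in chow or MASH. In MASH, replicate 3 had a lower sum (793 CPM) and more Scd2 (23.0 CPM) than replicate 2 (857 and 16.8 CPM). Scd1 was highest in C18:1 replicate 2, which had the lowest sum of the C18:1 libraries.

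**Figure D4:**
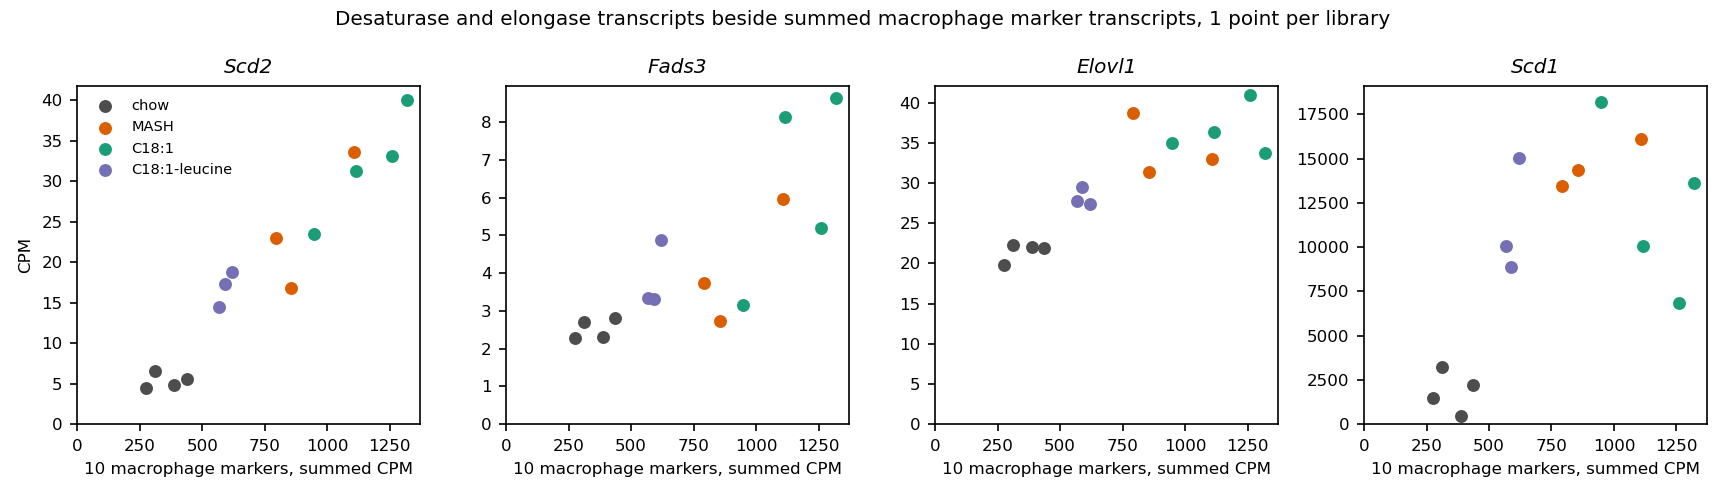
CPM of Scd2, Fads3, Elovl1 and Scd1 against the summed CPM of 10 macrophage markers, 1 point per library. C18:1-leucine libraries (568 to 618 CPM of markers) lie below MASH and C18:1 libraries in the marker sum, and the 3 of them lie below all C18:1 libraries for Scd2 and Elovl1.

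Stellate cell markers also differed, with 8 of 10 higher in MASH than in chow and 1 lower in C18:1-leucine than in C18:1, at sums of 231 to 333 CPM in chow, 539 to 1013 in MASH, 546 to 1385 in C18:1 and 522 to 767 in C18:1-leucine. Hepatocyte markers went the other way, with 6 of 10 lower in MASH than in chow and 4 higher in C18:1-leucine than in C18:1. Beside these, 15.1% of all tested genes were lower in MASH than in chow. In C18:1-leucine against C18:1, 16.2% were called in either direction. For the hepatocyte markers the sums follow. Their sums were 112109 to 130482 CPM in chow and 76456 to 87198 CPM in MASH, and 64245 to 81919 CPM in C18:1 and 81163 to 119930 CPM in C18:1-leucine. Fat cells also express Scd1 and Scd2; 5 adipocyte markers summed to 0.115 to 1.15 CPM in chow, 15.7 to 30.4 in MASH, 5.33 to 61.1 in C18:1 and 24.9 to 73.1 in C18:1-leucine, and 1 or 2 of the 5 were at 0 in every library of a group. Of these markers Cfd alone passed the filter on low counts, at 0.567 ± 0.462 CPM in chow and 25.0 ± 8.10 CPM in MASH, and made up most of the sum. The part of these cell type markers in the changes of Scd2, Elovl1 and the other members was not tested. In whole-liver RNA, fewer cells of a type and less RNA per cell cannot be told apart.

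Set against chow, both treated groups had higher Scd1, Scd2, Elovl1 and Elovl6, and these comparisons share the chow libraries with that of MASH against chow. In C18:1 against chow 8 members passed, 6 higher and 2 lower, where 52.6% of all tested genes were called (27.8% higher and 24.9% lower). The groups did not overlap for 7 of the 10, beside 46.6% of all tested genes. Scd1 was higher by 2.73 ± 0.48 (log2; adjusted p = 0.000530) and Scd2 by 2.58 ± 0.22 (adjusted p = 2.5e-06). Elovl6, at 76.8, 70.8, 67.2 and 84.6 CPM, was higher by 1.01 ± 0.17 and Elovl1 by 0.76 ± 0.08. These 4 genes also passed with groups from the treatment tags and without both libraries with disagreeing labels. Fads3 was higher by 1.32 ± 0.31 (adjusted p = 0.00303), all 4 of its C18:1 libraries lying above all chow libraries. With groups from the treatment tags it did not pass (0.97; adjusted p = 0.0504), without both libraries with disagreeing labels it did (1.13; 0.0145), and without the 3 libraries high in bile duct transcripts it was 0.71 (0.0419). Elovl5, at 550, 442, 409 and 311 CPM, had 1 library inside the chow range and did not pass (0.60 ± 0.30; adjusted p = 0.105).

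Fads2 passed in C18:1 against chow, at 255, 292, 244 and 228 CPM, all above the chow libraries. The log2 difference was 0.49 ± 0.17 (adjusted p = 0.0250), and the call was lost without chow replicate 1 (0.0610), chow replicate 2 (0.0742) or C18:1 replicate 2 (0.0657). It was also lost with groups from the treatment tags (0.0531), without both libraries holding pancreatic transcripts (0.0934) and without the 3 libraries high in bile duct transcripts (0.0896), but not without both libraries with disagreeing labels (0.0365). Fads1, its neighbour, was at 318, 301, 237 and 202 CPM with no call (-0.21 ± 0.23). The ratio of Fads2 to Fads1 CPM was 0.469 to 0.713 in chow, 0.701 to 0.893 in MASH, 0.802 to 1.13 in C18:1 and 0.844 to 0.936 in C18:1-leucine libraries, so that the treated groups did not overlap chow and MASH did.

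The genes lower in C18:1 than in chow were Elovl2 and Elovl3. Elovl2, at 330, 421, 368 and 286 CPM, overlapped chow and fell by 0.41 on the log2 scale (SE 0.15; adjusted p = 0.0286). The call was lost without chow replicate 1 (0.0770), chow replicate 3 (0.0803), C18:1 replicate 1 (0.0716) or C18:1 replicate 4 (0.0876). It was also lost with groups from the treatment tags (0.189), without both libraries with disagreeing labels (0.0793) and without the 3 libraries high in bile duct transcripts (0.109). Elovl3 did not overlap chow and fell by 1.13 (SE 0.35; adjusted p = 0.0173), a call lost without chow replicate 1 (0.0608), whose library name is written in another form than those of the other 13 libraries. It was also lost without both libraries with disagreeing labels (0.0593) and without the 3 libraries high in bile duct transcripts (-0.82; 0.118), and it held with groups from the treatment tags (0.0426).

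Elovl3 in liver is known for a strong daily rhythm and for higher levels in males. In C18:1 against chow, 9 of 12 genes of a list of male-biased liver genes were lower and none higher. Among 14 clock genes 5 were lower and 1 higher there, beside 24.9% lower and 27.8% higher of all tested genes. In MASH against chow 9 of the 12 male-biased genes were also lower (median -1.58), and 3 clock genes were lower and 1 higher. All tested genes gave 15.1% lower and 20.4% higher in MASH against chow, and Elovl3 gave no call there. In C18:1-leucine against C18:1, 7 of the 12 male-biased genes were higher, where 16.2% of all tested genes were called in either direction. Elovl3 differed by 0.29 ± 0.37 there with no call. The part of sex-biased or clock genes in the Elovl3 values was not tested, and no time of death is given in the labels used here.

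C18:1-leucine against chow had 4 called members, all higher, where 14.5% of all tested genes were called and 10.2% called higher. The groups did not overlap for 6 of the 10, beside 29.2% of all tested genes. Scd1 was higher by 2.63 ± 0.50 (adjusted p = 0.00566), Scd2 by 1.65 ± 0.23 (adjusted p = 0.000981), Elovl6 by 0.90 ± 0.18 (adjusted p = 0.00640) and Elovl1 by 0.39 ± 0.09 (adjusted p = 0.0111). Elovl6 measured 49.1, 72.7 and 87.5 CPM, all above chow. Fads2, at 208, 269 and 320 CPM, differed by 0.55 ± 0.18 without passing (adjusted p = 0.0551) and passed with DESeq2 (0.0242) and limma voom (0.0313). Elovl3, at 116, 125 and 140 CPM, was below every chow library and differed by -0.84 ± 0.38 without passing (adjusted p = 0.157). Fads1, at 222, 311 and 380 CPM, and Elovl2, at 453, 400 and 414 CPM, lay mostly within the chow range, with differences of -0.01 ± 0.25 and -0.15 ± 0.16. Elovl1 no longer passed with groups from the treatment tags (0.0901) or without both libraries holding pancreatic transcripts (0.0507). Without both libraries with disagreeing labels Elovl1 passed (0.0402), as did Fads2 (0.0401). Scd1, Scd2 and Elovl6 passed with groups from the treatment tags and without both of those libraries.

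The wider pathway was described by gene lists, given here as counts of calls with the list's median. In MASH against chow these counts are to be read beside the 35.5% of all tested genes called (20.4% higher and 15.1% lower, median 0.01), and with lists this short a share near it says nothing of the list. In C18:1-leucine against C18:1 the share was 16.2%. Of 5 tested further desaturases and elongases, 2 rose in MASH against chow (median log2 0.37). Elovl7, an elongase of long saturated chains, was at 0.378 ± 0.112 CPM in chow, 3.32 ± 1.75 in MASH, 4.58 ± 1.12 in C18:1 and 1.18 ± 0.954 in C18:1-leucine. It rose by 3.13 ± 0.51 in MASH against chow (adjusted p = 0.000618) and was lower by 1.96 on the log2 scale (SE 0.48; adjusted p = 0.0181) in C18:1-leucine than in C18:1. Scd3, a close paralog of Scd1, passed in MASH against chow but was at 0.318 ± 0.0474 CPM against 0.0570 ± 0.0642, with fractional counts in 12 libraries, so its value is uncertain.

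Of 6 partners of the Elovl proteins in the elongation cycle, 2 rose in MASH against chow: Hacd4, a dehydratase of the cycle, 2.82-fold (95% interval 2.13 to 3.74) and Hsd17b12, its ketoacyl reductase, 1.32-fold (1.13 to 1.54). The list's median was -0.09. Among 5 tested genes that feed electrons to the desaturases, Cyb5a, the cytochrome that hands them over, was lower in MASH (701 ± 13.3 CPM) than in chow (904 ± 112 CPM) by -0.37 ± 0.12 and higher in C18:1-leucine (973 ± 51.7 CPM) than in C18:1 (633 ± 81.2 CPM) by 0.62 ± 0.12.

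Genes that make the saturated substrate gave calls in both directions. Of 9, Acaca, which makes malonyl-CoA, rose in MASH against chow (0.89 ± 0.16), and Acly (-0.66 ± 0.14), Slc25a1 and Mcat were lower. Fasn, fatty acid synthase, was at 272 ± 50.7 CPM in chow and 222 ± 25.2 CPM in MASH and did not pass (-0.29 ± 0.21; adjusted p = 0.293). The list's median was -0.29. Of 7 tested acyl-CoA synthetases, 3 were lower in MASH than in chow and none higher, and 2 of these, Slc27a2 and Slc27a5, were higher in C18:1-leucine than in C18:1.

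Of 14 known regulators, 2 were higher and 4 lower in MASH than in chow (median -0.13). Srebf1, which activates transcription of Scd1 and other lipogenic genes, was at 79.3 ± 29.0 CPM in chow and 186 ± 77.3 CPM in MASH (1.23 ± 0.39; adjusted p = 0.0267), with groups that overlapped. Insig1, which holds the SREBP precursors in the endoplasmic reticulum and is itself a sterol-responsive target, was lower by -2.57 ± 0.35 (386 ± 162 CPM in chow and 65.2 ± 31.0 CPM in MASH). Srebf2 (-0.90 ± 0.11), Scap (-0.50 ± 0.07) and Hnf4a (-0.72 ± 0.17) were also lower, and Insig2 was higher (0.52 ± 0.19). Nr1h3, a liver X receptor, was at 102 ± 4.77 and 96.8 ± 10.9 CPM and Mlxipl, a carbohydrate-responsive activator, at 314 ± 62.2 and 281 ± 19.1 CPM, without a call. In C18:1-leucine against C18:1 Scap was the 1 regulator called (0.27 ± 0.07).

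Within the MASH diet the lists gave no call against MASH by edgeR: 0 of 92 tested list genes in C18:1 against MASH (6 at an unadjusted p under 0.05, and 0 by DESeq2 and by limma voom) and 0 in C18:1-leucine against MASH (27 at an unadjusted p under 0.05). In the latter DESeq2 called 18 and limma voom 16 of the 92, beside 6.68% and 3.94% of all genes they tested.

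Across the 10 libraries of mice on the MASH diet, levels of pairs of members were compared on the log2 CPM scale. The libraries and permutations pool the MASH, C18:1 and C18:1-leucine groups, so differences between groups enter these values. Of 45 pairs none passed after Benjamini-Hochberg adjustment of permutation p-values. By Pearson's r the pair at the top was that of the neighbours Fads1 and Fads2, at 0.845 (permutation p = 0.00165; adjusted 0.0742), Spearman's rho of 0.770 (permutation p = 0.0125; adjusted 0.141) and r of 0.796 without the 2 libraries farthest from the median of Fads1. Scd2 and Fads3 followed at r = 0.831 (permutation p = 0.00472; adjusted 0.106) and rho = 0.782 (adjusted 0.141), with r of 0.767 without the 2 farthest libraries. By Spearman's rho the top pair was Scd1 and Elovl5, at 0.794 (permutation p = 0.00857; adjusted 0.141), with r of 0.709 (permutation p = 0.0227; adjusted 0.191) and of 0.571 without the 2 farthest libraries. Scd1 and Scd2 gave r of -0.01 and rho of 0.176 (permutation p = 0.987 and 0.630), although both were higher than in chow. Taken as deviations from group means, r was 0.944 for Fads1 and Fads2 and 0.868 for Scd2 and Fads3. On that scale it was 0.654 for Scd1 and Elovl5 and -0.06 for Scd1 and Scd2. The starts of Fads1 and Fads2 are 81.1 kb apart, and the genes Scd1 and Scd2 are separated by 87.6 kb.

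**Figure D5:**
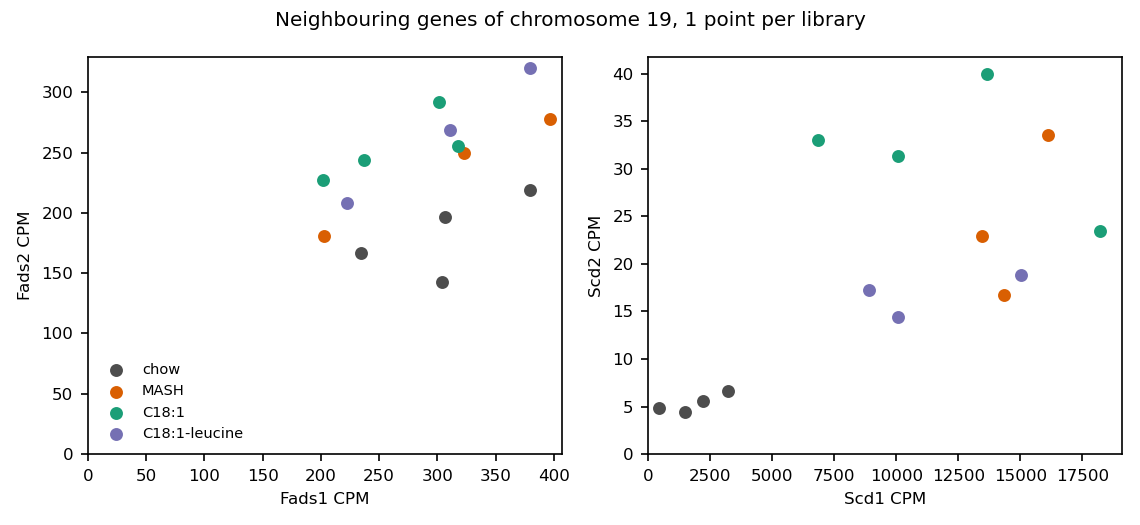
CPM of nearby genes of chromosome 19 against each other, 1 point per library, with Fads2 over Fads1 (left) and Scd2 over Scd1 (right). Over the pooled MASH-diet libraries r was 0.845 for Fads1 and Fads2 and -0.01 for Scd1 and Scd2, and neither pair passed after adjustment.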

How the data were processed

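Whole-liver RNA libraries were made with a NEBNext Ultra II kit after RNeasy extraction, per the labels' protocols. The deposited table holds 1 value per gene and library for 45706 rows; per the submitters' processing notes it was made with HTSeq on GRCm38, and DESeq2 1.42.1 is also named there. Between 5.09% and 5.76% of its values are not whole numbers, so the authors' values were treated as estimated counts (expected counts) and rounded. The 6 further tables of the authors' comparisons name their groups by letters without a key and were not used.

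Genes were tested with edgeR 4.0.16 (TMM scaling, quasi-likelihood, all 14 libraries in 1 fit, minimum count 10 and minimum total 15 by filterByExpr) with Benjamini-Hochberg adjustment over the 15674 genes kept and a threshold of 0.05. CPM are TMM-scaled, and levels per kilobase divide CPM by the merged exon length of GENCODE M21. DESeq2 1.42.0 and limma 3.58.1 (voom with sample weights) were alternatives, as were another scaling, no filter, the compared groups alone, leaving out libraries, groups from the treatment tags and a minimum change of 1.5-fold. The fit was also run on simulated counts with known changes. These hold no label disagreements or differences in tissue content between libraries, and no result here rests on them. Replicates of a group differed by 25.0 to 168 in chi-square per gene, so none was taken as a repeat. Replicate numbers did not pair the groups. Named were all 10 members, up to 4 genes of a list with the smallest p, any regulator, and the 5 genes most like Scd1; Fasn was added after its values were seen. The genes, the pathway lists and the marker lists were chosen with earlier results of these data known.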

Additional observations from a re-analysis of the deposited data

Results flagged for a closer look

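Elovl1 in chow replicate 3 was at 19.7 CPM, low beside chow libraries at 21.9 to 22.3 CPM: its gap to the nearest library was 0.853 of the group's range. Groups of 4 were examined for all 10 genes (20 sets of values), and chance alone sets apart about 1 set in 20.

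The effects of the compounds relative to the shared MASH libraries differed for 2 genes by the test of the difference itself, which is C18:1-leucine against C18:1. For Scd2 the effect of C18:1-leucine minus that of C18:1 was -0.92 on the log2 scale, lower in 3 of 3 C18:1-leucine libraries than in any C18:1 library. For Elovl1 it was -0.37, again in 3 of 3 libraries. In this comparison 16.2% of all tested genes were called and 8.89% were called lower, so 2 of 10 is close to the share called in either direction. The groups did not overlap for 27.7% of all tested genes. C18:1-leucine replicate 1 carries the C18:1 tag, and with groups from the treatment tags neither gene passed edgeR's test (adjusted p = 0.439 for Scd2 and 0.252 for Elovl1). The summed macrophage markers of the same C18:1-leucine libraries were below those of all C18:1 libraries (568 to 618 against 949 to 1320 CPM), and their part in these differences was not tested.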

How the results depend on the processing

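Another scaling (relative log expression) gave the same called members in all 6 comparisons, and no called fold change reversed under any alternative. The count in C18:1-leucine against C18:1 was 2; it was 0 with groups from the treatment tags, 1 without both libraries with disagreeing labels, 0 without both libraries holding pancreatic transcripts, 0 without the 3 libraries high in bile duct transcripts and 1 with a minimum change of 1.5-fold. The count in C18:1 against chow was 8, and it was 5 with groups from the treatment tags and 5 without the 3 libraries high in bile duct transcripts. The settings on pancreatic and bile duct transcripts were chosen after seeing the data; fewer libraries enter those fits, and otherwise the cause was not tested. Leaving out 1 library at a time gave 4 to 6 called members in MASH against chow, 0 to 0 in C18:1 against MASH and in C18:1-leucine against MASH, 0 to 3 in C18:1-leucine against C18:1, 5 to 8 in C18:1 against chow (5 without chow replicate 1) and 4 to 5 in C18:1-leucine against chow. With the replicate number as a block the counts were 4, 0, 0, 2, 7 and 4 in the order MASH against chow, C18:1 against MASH, C18:1-leucine against MASH, C18:1-leucine against C18:1, C18:1 against chow and C18:1-leucine against chow; same-numbered libraries correlated from -0.24 to 0.42 in their deviations, and the numbers are not taken as pairs. Of the members' fold changes, 1393 values kept direction and call, 42 lost the call, 12 gained it and 53 uncalled ones changed sign. At 169 counts or more for Scd2 and 80 or more for Fads3, counting error is largest for these.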

Other observations

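Of 10 tested genes that place acyl chains into lipids, 3 rose in MASH against chow and none fell, where 20.4% of all tested genes rose: Lpcat2 (1.63 ± 0.21 on the log2 scale, from 2.86 ± 0.798 to 8.83 ± 1.93 CPM), Lpcat1 (1.08 ± 0.19) and Lpcat4 (0.85 ± 0.29), all lysophospholipid acyltransferases. Lpcat1 and Lpcat2 were lower in C18:1-leucine than in C18:1, by -0.65 ± 0.19 and -0.95 ± 0.20 (edgeR adjusted p = 0.0355 and 0.0102). They were 2 of the 10 tested genes, where 8.89% of all tested genes were called lower and 16.2% in either direction. The list's medians in these comparisons were 0.33 and -0.00, and those of all tested genes were 0.01 and -0.02. Peroxisomal chain shortening is the last step of docosahexaenoate synthesis. Of 10 tested genes listed for it, 2 were called higher in MASH against chow and 0 lower (median 0.06), close to the 20.4% of all tested genes. Acaa1b (0.73 ± 0.22) rose there. In C18:1-leucine against C18:1, 1 of the 10 was called higher (median 0.13), where 16.2% of all tested genes were called in either direction. Scp2 was higher in that comparison (0.34 ± 0.11).

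The genes whose log2 CPM followed Scd1 most closely over the 10 MASH-diet libraries, out of 10055 genes compared, were Dbi (Pearson's r of 0.895), which encodes the acyl-CoA binding protein, Srrd (0.873), Thap11 (0.869), Plrg1 (0.860) and Znhit6 (0.856). They were ranked by this measure, which is a description of these libraries. Dbi was at 350 ± 46.2 CPM in chow, 377 ± 37.0 in MASH, 311 ± 52.7 in C18:1 and 339 ± 39.4 in C18:1-leucine, and none of the 5 passed in MASH against chow, where Scd1 rose.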
